A study of Mus musculus with 6 samples.

Results

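The genes described here are 10 negative regulators of mitogen-activated protein kinase (MAPK) signalling, namely the dual-specificity phosphatase genes Dusp1, Dusp2, Dusp3, Dusp4, Dusp5, Dusp6 and Dusp16, the Sprouty genes Spry1 and Spry2, and Spred1. They were found by symbol among the 55401 genes of the deposited count matrix, each symbol belonging to 1 Ensembl identifier, and all 10 passed the filter on low counts that left 15959 genes to test. The samples are bone marrow-derived macrophages (BMDMs) of C57BL/6 mice, primary macrophages grown from bone marrow. Cells of 3 libraries had received an siRNA against Piezo1 (siPiezo1 1, 2 and 3), a mechanically gated cation channel, and cells of 3 libraries a negative-control siRNA (siNC 1, 2 and 3). The cells of all 6 libraries were mechanically stretched for 4 h, so the groups differ in the siRNA and unstretched cells were not analysed here. The study asked how Piezo1 promotes macrophage proliferation under mechanical stimuli.

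MAPK cascades relay growth factor, stress and inflammatory signals through the kinases ERK, p38 and JNK, which are switched on by phosphorylation of a threonine and a tyrosine. Dual-specificity phosphatases remove both phosphates, and Sprouty and Spred proteins act upstream by holding back Ras and Raf. Many of these genes are themselves switched on by the kinases they restrain, so their transcripts are used as readouts of recent MAPK activity; phosphorylation itself was not measured here. In macrophages the best known of them is Dusp1, which limits p38 and JNK signalling and cytokine output after inflammatory stimuli.

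The libraries held 61086684 to 75052745 estimated counts. Low values recurred at multiples of about 3.78 counts, so that these totals stood for about 16.2 to 19.9 M fragments. Levels are given as CPM, counts scaled to a common library total with TMM (trimmed mean of M values) factors. Piezo1, the siRNA target, stood at 111, 109 and 113 CPM in siPiezo1 libraries 1, 2 and 3, against 179.8, 285 and 189 CPM in siNC 1, 2 and 3. Its log2 fold change was -0.97 ± 0.18 with all 6 libraries and -0.73 ± 0.06 without siNC 2 (SE), with adjusted p-values of 0.744 and 0.00245 by edgeR. For Ccnd1, the cyclin D1 gene named in the study's title, the log2 fold changes were -1.29 ± 0.27 and -0.95 ± 0.14 (SE), with adjusted p-values of 0.744 and 0.0270. The groups did not overlap for either gene, but neither passed the threshold until siNC 2 was left out. Macrophage markers were abundant throughout, with 8 of 8 detected and a summed level of 34408 to 37251 CPM in siPiezo1 and 27969 to 35158 CPM in siNC, most of it from Lyz2. One library, siNC 2, stood apart from the other 5, and the results below are therefore given with and without it. The 10 neutrophil markers summed to 808 to 935 CPM in siPiezo1 and to 772, 4220 and 829 CPM in siNC 1, 2 and 3, and the 13 inflammatory genes to 584 to 701 CPM in siPiezo1 and to 555, 3351 and 564 CPM in siNC 1, 2 and 3. The 6 proliferation markers summed to 594 to 797 CPM in siPiezo1 and to 531, 1030 and 535 CPM in siNC 1, 2 and 3. Macrophage markers lay the other way, 6 of 8 being lowest in siNC 2. Csf1r, which encodes the CSF-1 receptor, stood there at 0.509 times the mean of siNC 1 and 3, Fcgr1 at 0.495 times and Mertk at 0.341 times. The falls were smaller for Lyz2 (0.840 times), Cd68 (0.733 times) and Adgre1 (0.708 times). The exceptions were Cd14, which was highest in siNC 2, at 1.73 times, and Itgam, at 1.42 times. Itgam stood at 1394, 261 and 284 CPM in siPiezo1 1, 2 and 3, against 541, 664 and 391 CPM in siNC 1, 2 and 3. Of the T cell markers, 3 of 4 were at 0 in all libraries, Cd3e among them. The remaining marker, Cd4, stood at 4.70, 5.39 and 1.88 CPM in siPiezo1 1, 2 and 3, against 16.5, 1.83 and 13.2 CPM in siNC 1, 2 and 3. Markers of B cells (Pax5 at 0) summed to at most 0.238 CPM in siPiezo1 and 0.212 CPM in siNC. Those of dendritic cells summed to at most 6.08 and 11.9 CPM, and those of fibroblasts to at most 17.1 and 15.5 CPM. The labels do not say whether replicates came from different animals or cultures. The p-values therefore rest on a spread between libraries whose source is not known, and they may not measure variation between animals.

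None of the 10 genes passed the test between siPiezo1 and siNC, and 8 of them stood in siNC 2 at more than 1.5 times the mean of siNC 1 and 3, against 19% of all genes tested. By edgeR's quasi-likelihood test, adjusted by Benjamini-Hochberg over every gene tested, 0 of 10 were called, where 1 of 15959 genes (0.00627%) was called in all. DESeq2 called 0 of 10, against 0.555% of all genes. At an unadjusted p under 0.05, edgeR had 1 of 10 lower in siPiezo1 (Dusp2), against 2.41% of all genes lower, and 0 of 10 higher. The groups did not overlap for 0 of 10, against 11.9% of all genes. The median log2 fold change of the 10 genes was -0.16 and that of all genes tested was -0.01. As these are bulk samples, a smaller number of cells expressing a gene and less RNA per cell cannot be told apart. With 3 against 3 libraries, an exact two-sided permutation test cannot give a p below 0.1, and for the 10 genes it gave 0.2 to 1.

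**Figure D1:**
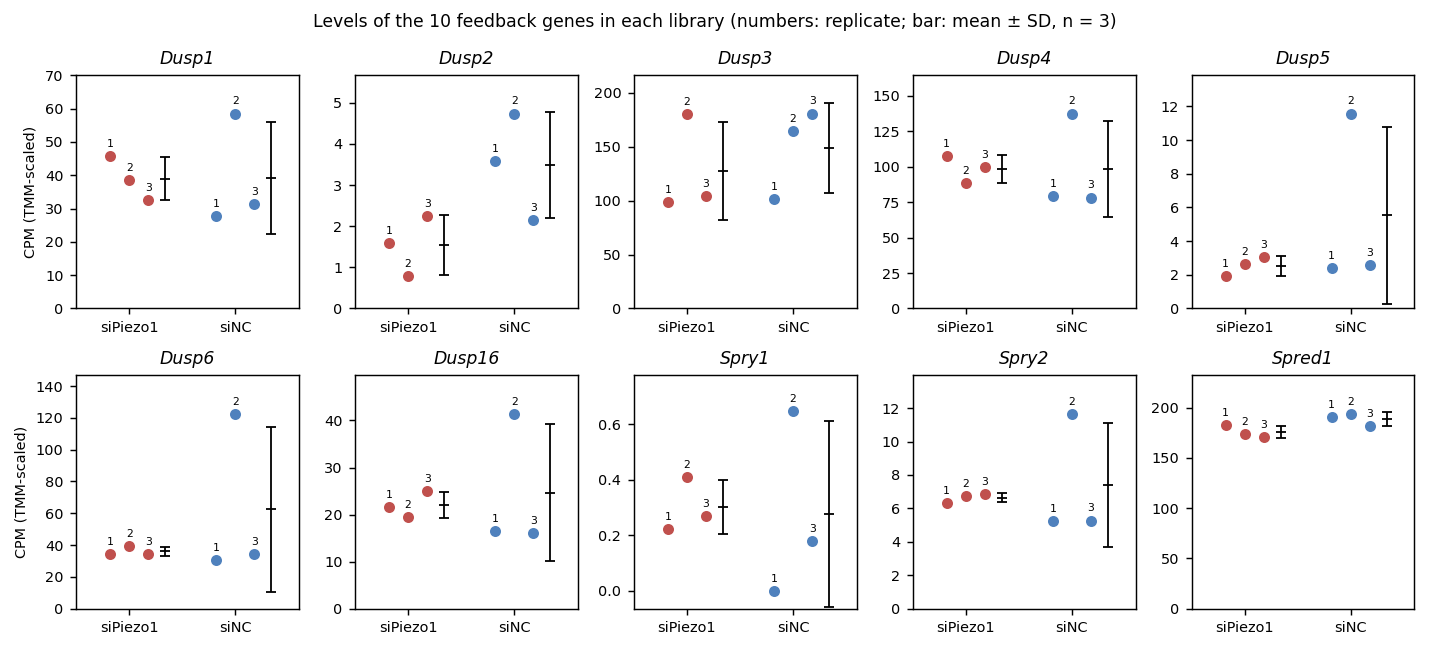
CPM of each of the 10 genes (vertical axes, linear) in the 3 siPiezo1 libraries (red) and the 3 siNC libraries (blue), with the replicate number above each point and the mean ± SD (n = 3) beside each group. For Dusp6 the siNC 2 point lies at 123 CPM and the other 5 between 30.6 and 39.3 CPM, while the Spred1 points lie between 171 and 194 CPM.

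Per kilobase of annotated exon, averaged over the 6 libraries, the level was 35.9 CPM per kb for Dusp4, 29.5 for Dusp3, 26.9 for Spred1, 15.7 for Dusp6 and 11.8 for Dusp1. It was 3.37 CPM per kb for Spry2, 2.99 for Dusp16, 1.63 for Dusp5, 1.26 for Dusp2 and 0.0993 for Spry1. Neighbours in this order were not all separated by their spread over libraries. Dusp4 ranged from 28.6 to 50.2 CPM per kb, Dusp3 from 21.03 to 38.6 and Spred1 from 25.2 to 28.6, so that these 3 overlapped. Dusp6, at 9.76 to 39.1 CPM per kb, overlapped Spred1 above it and Dusp1, at 8.40 to 17.7, below it. Dusp1 and Spry2 did not overlap, and Spry2, Dusp16 and Dusp5 each overlapped the next gene in the order. Spry1, at 0 to 0.223 CPM per kb, lay below every other member in every library.

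Dusp6 encodes a cytoplasmic phosphatase (MKP-3) that acts on ERK and is a classical target gene of ERK signalling. It stood at 34.4, 39.3 and 34.4 CPM in siPiezo1 1, 2 and 3, against 30.6, 123 and 34.7 CPM in siNC 1, 2 and 3. Thus siNC 2 was 3.12 times the highest other library, and the other siNC libraries lay within or just below the siPiezo1 range. The log2 fold change was -0.80 ± 0.52 (SE; adjusted p = 0.978, edgeR) with all 6 libraries and 0.14 ± 0.11 without siNC 2 (adjusted p = 0.637, edgeR).

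Dusp5 encodes a nuclear phosphatase that is likewise specific for ERK. It stood at 1.90, 2.64 and 3.08 CPM in siPiezo1 1, 2 and 3, against 2.40, 11.6 and 2.60 CPM in siNC 1, 2 and 3, which came from 36 to 54 fragments per siPiezo1 library and 39, 231 and 46 fragments in siNC. Again siNC 2 alone stood apart, at 3.76 times the highest other library, and the remaining siNC libraries lay inside the siPiezo1 range. Its log2 fold change was -1.12 ± 0.65 (SE) with all 6 libraries and 0.02 ± 0.31 without siNC 2. Its 95% interval was -2.66 to 0.42 with all 6 libraries and -0.70 to 0.73 without siNC 2. Exons of an antisense gene, AC137853.2, cover 22.1% of the exon bases of Dusp5, and whether counting used the strand is not given; that gene was at most 0.568 CPM.

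The phosphatases Dusp1, Dusp4 and Dusp16, which have wider targets, were also highest in siNC 2. Dusp1 (MKP-1), an early response gene whose product acts on p38, JNK and ERK, stood at 45.6, 38.5 and 32.7 CPM in siPiezo1 1, 2 and 3, against 27.8, 58.5 and 31.3 CPM in siNC 1, 2 and 3. The group means were 39.0 ± 6.49 CPM in siPiezo1 and 39.2 ± 16.8 CPM in siNC (SD, n = 3). Thus siNC 2 was highest and the 3 siPiezo1 libraries lay above siNC 1 and 3, the nearest pair being 32.7 CPM in siPiezo1 3 and 31.3 CPM in siNC 3. The log2 fold change was -0.01 ± 0.29 (SE) with all 6 libraries. Without siNC 2 it was 0.40 ± 0.14 (SE, 95% interval 0.06 to 0.73), with an unadjusted p of 0.0255 and an adjusted p of 0.254 by edgeR.

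Dusp4 (MKP-2), a nuclear relative of Dusp1, stood at 107, 88.3 and 99.8 CPM in siPiezo1 1, 2 and 3, against 79.2, 138 and 78.3 CPM in siNC 1, 2 and 3. The order was the one seen for Dusp1, with siNC 2 at the top, the siPiezo1 libraries next and siNC 1 and 3 lowest. Dusp4 had a log2 fold change of 0.0011 ± 0.23 (SE) with all 6 libraries and 0.32 ± 0.09 without siNC 2. The second value had the smallest p of the 10 genes in that comparison (unadjusted p = 0.00662, adjusted p = 0.140, edgeR).

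Dusp16 (MKP-7), which acts on JNK and p38, stood at 21.6, 19.4 and 25.1 CPM in siPiezo1 1, 2 and 3, against 16.5, 41.4 and 16.1 CPM in siNC 1, 2 and 3. It followed the same order, and siNC 2 was 1.65 times the highest other library. Its log2 fold change was -0.16 ± 0.38 (SE) with all 6 libraries and 0.43 ± 0.13 without siNC 2 (adjusted p = 0.182, edgeR).

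Dusp2 and Dusp3 did not follow this order. Dusp2 was also highest in siNC 2, at 1.33 times the highest other library, but siNC 1 lay above the siPiezo1 libraries. Dusp3 was highest in siNC 3. Dusp2 (PAC-1), a nuclear phosphatase of activated immune cells, had the smallest p of the 10 genes with all 6 libraries. It stood at 1.59, 0.797 and 2.26 CPM in siPiezo1 1, 2 and 3, against 3.57, 4.74 and 2.15 CPM in siNC 1, 2 and 3. The groups overlapped, since siPiezo1 3 lay above siNC 3, and these levels came from 30, 16 and 40 fragments in siPiezo1 and 57, 95 and 38 fragments in siNC. For Dusp2 the log2 fold change was -1.17 ± 0.47 (SE, 95% interval -2.30 to -0.05), with an unadjusted p of 0.0433 and an adjusted p of 0.978 by edgeR. Without siNC 2 it was -0.89 ± 0.46 (SE; adjusted p = 0.446, edgeR).

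Dusp3 (VHR) is a small atypical phosphatase that lacks the MAPK-docking domain of the others. It stood at 98.4, 179.9 and 104 CPM in siPiezo1 1, 2 and 3, against 102, 164 and 181 CPM in siNC 1, 2 and 3. The 6 values thus lay at 2 levels, with 1 siPiezo1 and 2 siNC libraries between 164 and 181 CPM and the others between 98.4 and 104 CPM, and the groups overlapped. These values came from 1633 to 3584 fragments per library, and the log2 fold change was -0.22 ± 0.30 (SE; 95% interval -0.94 to 0.49). An antisense gene, Gm20659, whose exons cover 12.9% of the exon bases of Dusp3, was at 0 in every library.

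The Sprouty and Spred genes covered the whole range of levels. Spry2, an adaptor that restrains growth factor receptor signalling to Ras, stood at 6.32, 6.77 and 6.86 CPM in siPiezo1 1, 2 and 3, against 5.25, 11.7 and 5.28 CPM in siNC 1, 2 and 3. It was highest in siNC 2 and lowest in siNC 1 and 3, as Dusp1, Dusp4 and Dusp16 were. Its log2 fold change was -0.15 ± 0.34 (SE) with all 6 libraries and 0.33 ± 0.18 without siNC 2 (adjusted p = 0.471, edgeR).

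Spry1, its relative, was at the limit of detection, with 4, 8 and 5 fragments in siPiezo1 1, 2 and 3, against 0, 13 and 3 fragments in siNC 1, 2 and 3. The 0 in siNC 1 allows a level of up to 0.187 CPM, which is what 3 fragments would give, and this covers counting error alone. At this depth its fold change (0.12 ± 1.29, SE, log2) says little. Exons of the antisense gene Gm42922 cover 24.4% of its exon bases, and that gene was at most 0.106 CPM.

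Spred1, which brings the Ras inhibitor neurofibromin to the membrane, varied least. It stood at 183, 173 and 171 CPM in siPiezo1 1, 2 and 3, against 191, 194 and 181 CPM in siNC 1, 2 and 3. Its highest library was 1.13 times its lowest, siNC 2 lay beside siNC 1, and the groups overlapped at 183 CPM in siPiezo1 1 and 181 CPM in siNC 3. The log2 fold change was -0.10 ± 0.07 (SE, 95% interval -0.28 to 0.07), the narrowest interval of the 10.

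**Figure D2:**
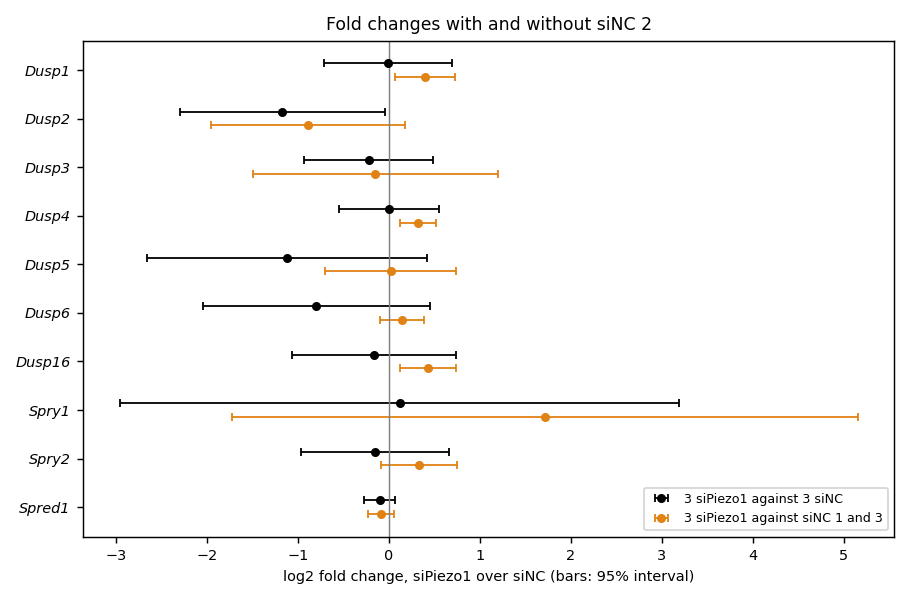
Log2 fold change of siPiezo1 over siNC for each of the 10 genes with its 95% interval from edgeR's quasi-likelihood fit, with all 6 libraries (black) and without siNC 2 (orange). Without siNC 2 the value of Dusp6 was 0.14 in place of -0.80, Dusp2 stayed below 0 at -0.89, and the Spry1 intervals were the widest of the 10.

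Set beside all genes tested, the excess in siNC 2 was frequent among the 10. It was the highest of the 6 libraries for 9 of them, Dusp3 being the exception, against 28.8% of all genes. Of the 9 with a mean above 1 CPM, 4 stood in siNC 2 at more than 1.5 times the highest other library (Dusp5, Dusp6, Dusp16 and Spry2), against 5.72% of all such genes, and 2 at more than 2 times (Dusp5 and Dusp6), against 3.03%. The median log2 ratio of siNC 2 over the mean of siNC 1 and 3 was 0.97 for the 10 genes and 0.0031 for all genes. These counts were made after siNC 2 had been seen to stand apart. The 10 neutrophil markers, 12 of the 13 inflammatory genes and the 6 proliferation markers were also highest in siNC 2. Tnfaip3 was the inflammatory gene that was not, at 68.6 CPM there against 91.2 and 89.0 CPM in siNC 1 and 3. Among the neutrophil markers, Ly6g was at the limit of detection. It had 0, 0 and 4 fragments in siPiezo1 1, 2 and 3, against 2, 7 and 5 fragments in siNC 1, 2 and 3. Of the 8 macrophage markers, 6 were lowest in siNC 2. The part of these markers in the values of the 10 genes was not tested.

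Without siNC 2, 5 of the 10 genes were higher in each siPiezo1 library than in siNC 1 and 3, against 16.4% of all genes in that comparison. These were Dusp1, Dusp4, Dusp16, Spry1 and Spry2, and 0 of the 10 were lower in each. For Spry1 this rests on 4, 8 and 5 fragments in siPiezo1 1, 2 and 3, against 0 and 3 in siNC 1 and 3. At an unadjusted p under 0.05, 3 were higher (Dusp1, Dusp4 and Dusp16), against 7.54% of all genes, and 0 were lower. After adjustment 0 of 10 passed, where 180 of 16442 genes (1.09%) did. The median log2 fold change of the 10 genes was then 0.23 and that of all genes tested 0.0038. The summed level of the 6 proliferation markers (594 to 797 CPM in siPiezo1, 531 and 535 CPM in siNC 1 and 3) and that of the 13 inflammatory genes (584 to 701 CPM in siPiezo1, 555 and 564 CPM in siNC 1 and 3) were also higher in each siPiezo1 library. By gene, 5 of the 6 proliferation markers and 9 of the 13 inflammatory genes were higher in each, and 1 inflammatory gene, Tnfaip3, was lower in each. The summed level of the 10 neutrophil markers overlapped (808 to 935 CPM in siPiezo1, 772 and 829 CPM in siNC 1 and 3). Of these, 2 were higher and 2 lower in each siPiezo1 library. Of the 8 macrophage markers, 4 were lower in each siPiezo1 library than in siNC 1 and 3 and 2 were higher in each, and 2 passed the test there, both lower, which were Fcgr1 (log2 fold change -0.46 ± 0.07, SE; adjusted p = 0.0283, edgeR) and Adgre1 (-0.31 ± 0.05, SE; adjusted p = 0.0375, edgeR). Of the 180 genes past the threshold, 106 were higher and 74 lower in siPiezo1. The shares of all genes lower in each siPiezo1 library, or lower at an unadjusted p under 0.05, are not given. The counts of lower genes under those 2 rules therefore stand without a background. The part of these marker genes in the members' values was not tested.

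**Figure D3:**
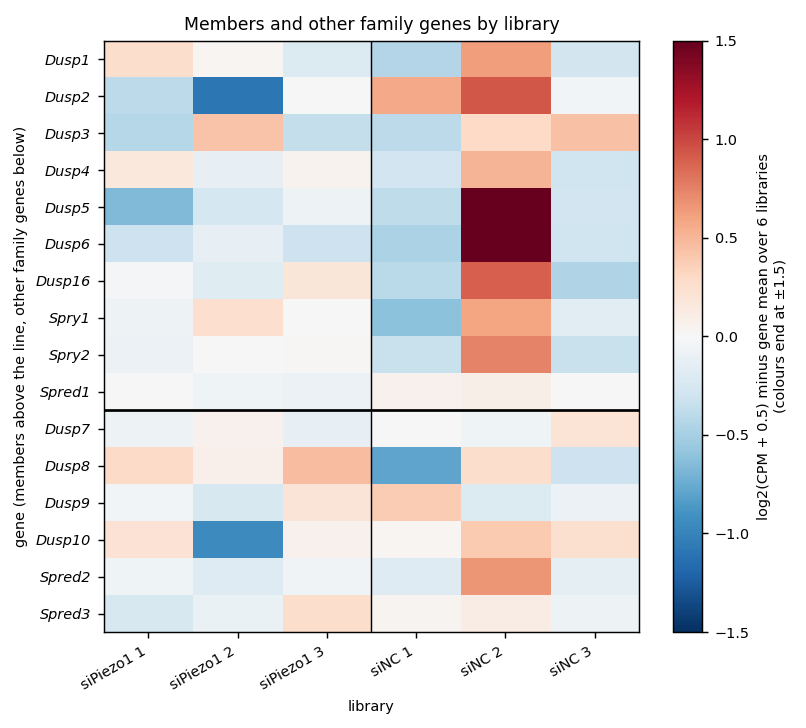
Log2(CPM + 0.5) of the 10 genes (above the line) and of 6 other tested genes of the same families (below it), each centred on its mean over the 6 libraries, with siPiezo1 libraries on the left and siNC libraries on the right; colours end at 1.5 in either direction. In siNC 2 all 10 genes above the line are above their mean, most Dusp5 and Dusp6, and Dusp3 is red in siPiezo1 2, siNC 2 and siNC 3.

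The promoters of 4 of the 9 genes highest in siNC 2 are shown, namely those of Dusp1, Dusp5, Dusp6 and Dusp2. Dusp2 had the smallest p of the 10 genes with all 6 libraries. For Dusp1, siNC 2 was 1.28 times the highest other library. It was 1.65 times for Dusp16 and 1.70 times for Spry2, whose sequences are not shown. The 4 are thus examples and do not stand for the members as a set. The sequences are those of RefSeq on build GRCm38.p6, from 250 bases before to 50 bases after the annotated start site, 5′ to 3′ on the strand of the gene; the counts were made on GRCm39. The windows are chr17:26508423-26508722 (minus strand) for Dusp1, chr19:53528895-53529194 (plus strand) for Dusp5, chr10:99262981-99263280 (plus strand) for Dusp6 and chr2:127335909-127336208 (plus strand) for Dusp2. Capitals mark matches, on either strand, to the motifs searched: the cAMP response element (TGACGTCA), its half-site (TGACG, which also lies within the full element), the AP-1 site (TGANTCA), an ETS site (CCGGAA), the TATA box (TATAAA), and the NF-kB site and the CArG box of serum response factor by name.
Dusp1: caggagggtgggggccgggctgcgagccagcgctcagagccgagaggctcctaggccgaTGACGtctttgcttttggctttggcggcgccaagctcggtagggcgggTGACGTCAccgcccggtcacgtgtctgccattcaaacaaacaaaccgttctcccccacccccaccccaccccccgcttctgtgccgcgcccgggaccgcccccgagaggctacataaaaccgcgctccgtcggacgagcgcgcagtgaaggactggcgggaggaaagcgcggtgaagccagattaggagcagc
Dusp5: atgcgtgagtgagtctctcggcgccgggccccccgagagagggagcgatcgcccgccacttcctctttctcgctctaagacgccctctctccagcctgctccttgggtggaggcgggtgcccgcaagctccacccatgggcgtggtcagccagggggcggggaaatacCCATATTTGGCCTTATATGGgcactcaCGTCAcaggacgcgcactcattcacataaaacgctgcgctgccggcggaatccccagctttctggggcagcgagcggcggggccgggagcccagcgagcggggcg
Dusp6: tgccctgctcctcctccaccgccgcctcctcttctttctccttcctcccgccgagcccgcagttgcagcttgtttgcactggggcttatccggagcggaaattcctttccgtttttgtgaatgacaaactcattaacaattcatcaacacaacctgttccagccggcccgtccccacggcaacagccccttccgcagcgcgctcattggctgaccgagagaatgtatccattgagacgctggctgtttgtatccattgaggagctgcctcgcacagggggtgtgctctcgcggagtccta
Dusp2: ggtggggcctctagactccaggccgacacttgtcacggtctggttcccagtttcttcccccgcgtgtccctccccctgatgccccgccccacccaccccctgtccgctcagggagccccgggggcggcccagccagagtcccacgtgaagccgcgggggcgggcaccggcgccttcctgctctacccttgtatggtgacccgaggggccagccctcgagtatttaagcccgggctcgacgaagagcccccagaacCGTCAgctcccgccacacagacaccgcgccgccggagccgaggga

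The windows differed in their matches. Dusp1 held a full cAMP response element at bases -143 to -136 from the start site and a separate half-site at -191 to -187. A full element was found in 1.79% of the 32851 windows of the table and a half-site in 20.8%. Dusp5 held adjoining CArG boxes at -82 to -73 and -72 to -63, and a half-site at -55 to -51. At least 1 CArG box was found in 1.63% of all windows and 2 or more in 6 windows. Dusp6 held none of the motifs, which says only that these letters are not in this window, and Dusp2 held a half-site at bases 6 to 10. Of the 9 members with a window in the table, 4 held a half-site (Dusp1, Dusp2, Dusp5 and Dusp16), 1 an ETS site (Spry2, against 14.9% of all windows) and 0 an AP-1 site (7.81%), a TATA box (13.6%) or an NF-kB site (4.51%). A match is a description of the sequence and not evidence of binding.

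Of the 8 other MAPK phosphatase, Sprouty and Spred genes, 7 were found by symbol and 6 were tested, and 0 passed the threshold in either direction (median log2 fold change -0.10). Spry4, a further Sprouty gene, was at 0 in the 3 siPiezo1 libraries and in siNC 1 and 3, and at 1.88 CPM, from 38 fragments, in siNC 2. It was thus detected in siNC 2 alone and was too rare elsewhere to be tested; 3 fragments would have given 0.151 to 0.187 CPM there. Spred2 stood at 39.7, 36.4 and 40.2 CPM in siPiezo1 1, 2 and 3, against 36.3, 66.2 and 37.6 CPM in siNC 1, 2 and 3 (log2 fold change -0.27 ± 0.24, SE), and so also had its highest value in siNC 2. Dusp8, a phosphatase of JNK and p38, had 1.22, 0.982 and 1.44 CPM in siPiezo1 1, 2 and 3, against 0.313, 1.19 and 0.628 CPM in siNC 1, 2 and 3 (0.76 ± 0.54, SE). Dusp7, a close relative of Dusp6, stood at 36.3 to 41.3 CPM in siPiezo1 and 37.7 to 45.5 CPM in siNC, with siNC 2 the lowest of the siNC libraries.

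The kinases and adaptors that carry the signals showed no common shift. Of 24 tested genes of the Ras-ERK cascade 0 passed the threshold, with 12 above and 12 below 0 and a median of 0.0001 on the log2 scale. Their median log2 ratio of siNC 2 over siNC 1 and 3 was -0.08. Nras, a Ras gene, had the smallest p, at 41.6, 39.6 and 40.3 CPM in siPiezo1 1, 2 and 3, against 127, 55.7 and 51.0 CPM in siNC 1, 2 and 3 (log2 fold change -0.94 ± 0.35, SE; unadjusted p = 0.0303 and adjusted p = 0.978, edgeR). Its groups did not overlap, and siNC 1 was the high library. Rasgrp3, a Ras activator, had a log2 fold change of 0.51 ± 0.27 (SE). Of 18 tested genes of the p38 and JNK cascade 0 passed, 13 were above 0 (7660 of all 15959 genes were) and the median was 0.08. Map3k7 (TAK1), which relays cytokine and Toll-like receptor signals, had 0.27 ± 0.13 and Map3k5 (ASK1), a stress-activated kinase, 0.26 ± 0.14 (SE).

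Transcription factor and early response genes downstream of ERK were also mostly highest in siNC 2. Of 20 tested genes 0 passed the threshold, 17 were below 0 and the median log2 fold change was -0.32. At an unadjusted p under 0.05 by edgeR, 5 were lower and 0 higher. Of all 15959 genes tested, 8299 were below 0, 384 (2.41%) were lower at that p and 402 were higher. Without siNC 2 the median was 0.09, 13 of 20 were above 0, and 1 gene, Fos, was called lower. Of all 16442 genes in that comparison, 8301 were above 0 and 74 were called lower. Fos stood at 40.2, 43.4 and 40.0 CPM in siPiezo1, against 64.0, 57.4 and 60.9 CPM in siNC, so that siNC 2 was the lowest siNC library. The log2 fold change of Fos was -0.56 ± 0.09 (SE) with all 6 libraries and -0.60 ± 0.08 without siNC 2, with adjusted p-values of 0.497 and 0.0168 by edgeR. Fosl1, a partner of Jun proteins in AP-1, stood at 0.266, 0 and 0.105 CPM in siPiezo1 1, 2 and 3, against 0.412, 5.29 and 0.449 CPM in siNC 1, 2 and 3 (unadjusted p = 0.0329). siNC 2 was the highest library for 17 of the 20 genes (85% of them, as for 90% of the 10 members and 28.8% of all genes). Etv4, an ETS factor too rare to be tested, was at 0.648 CPM in siNC 2 and at 0.0598 CPM or less in every other library.

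The p38 pathway also controls the decay of cytokine mRNAs with AU-rich elements, and the list for it held RNA-binding proteins and such mRNAs. Of 9 tested genes 0 passed, 8 were below 0 (8299 of all 15959 genes were) and the median log2 fold change was -0.63 (0.11 without siNC 2), which is the value of Tnf. Tnf, Il6, Ptgs2 and Cxcl2 are also in the inflammatory list, so these lists are not independent. Among the genes of RNA-binding proteins, Zfp36, Zfp36l1 and Zfp36l2 were highest in siNC 1 and Elavl1 in siNC 2. Zfp36 (tristetraprolin), which destabilises cytokine mRNA and is held inactive by p38 signalling, stood at 57.2, 59.1 and 51.3 CPM in siPiezo1 1, 2 and 3, against 73.4, 59.0 and 69.4 CPM in siNC 1, 2 and 3. Here siNC 2 was the lowest siNC library and lay among the siPiezo1 values; the log2 fold change was -0.27 ± 0.11 (SE; unadjusted p = 0.0468). Il6, a cytokine gene whose mRNA is AU-rich, stood at 0.553 to 0.811 CPM in siPiezo1, against 0.198, 29.2 and 0.852 CPM in siNC 1, 2 and 3 (log2 fold change -3.97 ± 1.69, SE; 0.29 ± 0.74 without siNC 2).

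**Figure D4:**
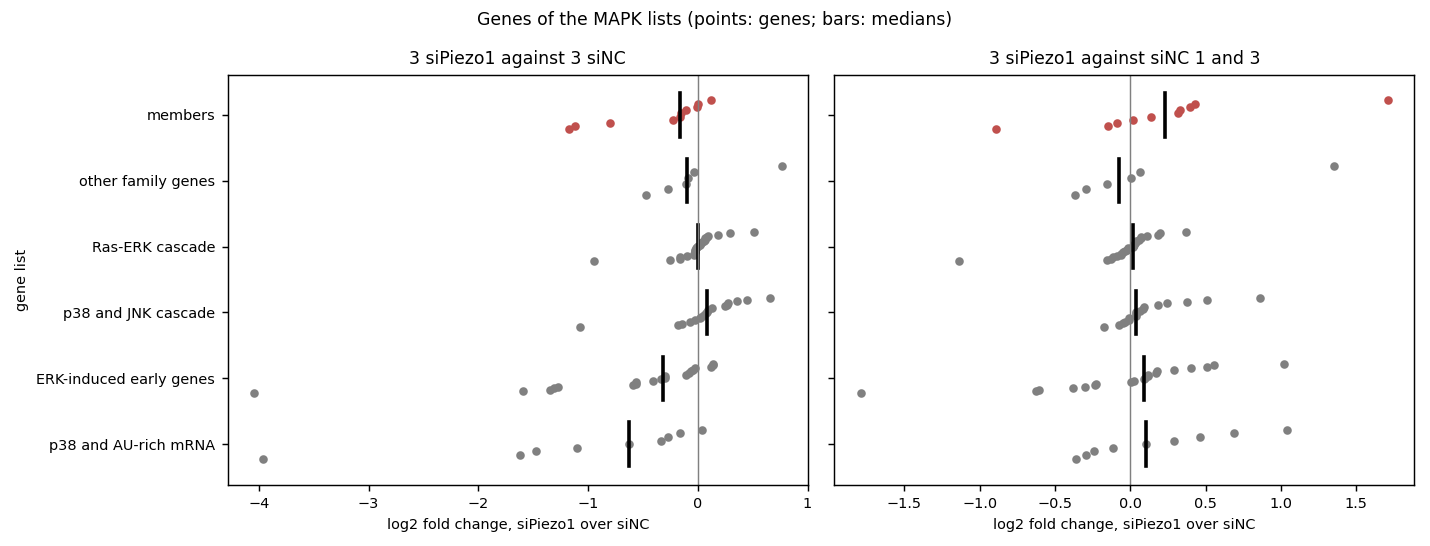
Log2 fold changes of siPiezo1 over siNC for the 10 members (red) and the tested genes of 5 related lists (grey), with all 6 libraries on the left and without siNC 2 on the right (the horizontal scales differ); black bars are medians. With siNC 2 the medians of the members, the early genes and the AU-rich mRNA genes lie at -0.16, -0.32 and -0.63, and without it at 0.23, 0.09 and 0.11, while the cascade lists stay within 0.1 of 0.

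The inflammatory and proliferation lists were also followed, since siNC 2 stood apart in both. Of 13 inflammatory genes 0 passed with all 6 libraries, 13 were below 0 (8299 of all 15959 genes were) and the median log2 fold change was -1.24. Il1a and Il6 had the smallest p, with -3.73 ± 1.53 and -3.97 ± 1.69 (SE). Without siNC 2 the median was 0.37 and 1 gene was called, the chemokine gene Cxcl3, which stood at 28.0, 20.8 and 25.3 CPM in siPiezo1, against 10.8, 282 and 11.4 CPM in siNC 1, 2 and 3 (log2 fold change -2.04 ± 1.25 with all 6 libraries and 1.15 ± 0.15 without siNC 2, SE; adjusted p without it 0.0155, edgeR). Of 6 proliferation markers 0 passed, with a median of -0.01 (0.50 without siNC 2); Ccnb1 and Mcm2 had 0.16 ± 0.33 and -0.14 ± 0.35 (SE).

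The genes with the nearest pattern over the 6 libraries were taken as those with the smallest root mean square difference of centred log2 CPM, among 9535 or 9536 genes of at least 5 CPM. For Dusp2 they were Dcp1a, Piga and Ipo4, at 0.37, 0.38 and 0.41. For Spry1, whose range was the widest because siNC 1 was at 0, they were Ddit4, Raet1d and AU022252, at 0.64 to 0.78, none of them close. Dusp6 and Dusp3 were added after their values had been seen. Those nearest to Dusp6 were Ngp, a neutrophil granule gene, Igf1r, a growth factor receptor gene, and Palm, at 0.10, 0.10 and 0.11; Ngp stood at 153, 171 and 149 CPM in siPiezo1 1, 2 and 3, against 157, 609 and 165 CPM in siNC 1, 2 and 3. Those nearest to Dusp3 were Actr1a, Sec11a and Sec16a, at 0.15, 0.16 and 0.16. Actr1a, a dynactin subunit gene, stood at 131, 187 and 121 CPM in siPiezo1 1, 2 and 3, against 120.04, 182 and 173 CPM in siNC 1, 2 and 3, so that the same 3 libraries were high. With so many genes and 6 libraries, near matches are common, and nothing of shared control follows from them.

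**Figure D5:**
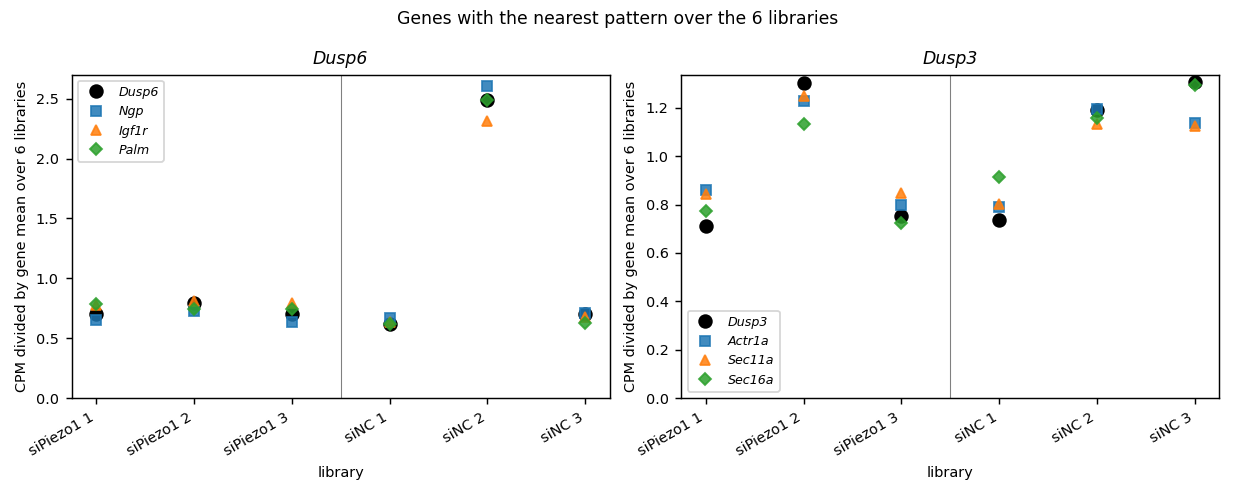
CPM divided by the gene's mean over the 6 libraries (vertical axes, linear from 0) for Dusp6 and Dusp3 (black) and the 3 genes with the nearest pattern to each, by library. Dusp6 and its 3 neighbours lie far above the other libraries in siNC 2, where Dusp6 stood at 123 CPM, and Dusp3 and its 3 neighbours are higher in siPiezo1 2, siNC 2 and siNC 3 than in the others.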

How the data were processed

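RNA of 3 siPiezo1 and 3 siNC libraries was sequenced as poly(A)-selected, dUTP-marked libraries, per the labels' protocols. Per the submitters' processing notes, cutadapt 1.9, HISAT2 2.0.4, StringTie 1.3.4d, DESeq2 and edgeR were used with build GRCm39; the sources used here do not give the role of each, the annotation or the use of strand. The authors deposited whole-number estimated counts per gene, unscaled; 0 columns of values were left unmapped. The design assumed counts, and the same test was used on these estimated counts, already whole.

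GENCODE M21 named 55141 of 55401 identifiers (unnamed ones held at most 0.00886% of a library) and gave exon lengths. Genes kept by filterByExpr were tested in R 4.3.3 with edgeR 4.0.16 (TMM, robust quasi-likelihood test, group as the only term, Benjamini-Hochberg threshold 0.05). SE is |log2 fold change| / √F. Exact permutation tests used CPM. Alternatives were DESeq2 1.42.0 and its size factors, library totals, no filter, limma-voom (limma 3.58.1), the replicate number as a block, counts divided by 4, and each library left out. On simulated counts for 15959 genes, the test of 3 against 3 libraries recovered 7.46% of 1.5-fold, 44.8% of 2-fold and 93.9% of 4-fold changes. With 3 against 2 libraries it recovered 1.49%, 26.9% and 90.9%. False calls made up 7.62% of calls with 3 against 3 libraries and 10.2% with 3 against 2, more than the threshold of 0.05 allows. Both simulations took their means and spread from the fit with all 6 libraries, siNC 2 included, and no simulated library was made to stand apart. The shares for 3 against 2 libraries therefore do not describe the comparison without siNC 2. Changes were placed only in genes above 5 CPM, so the recovered shares do not cover Dusp2, Dusp5 or Spry1.

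The members, lists and rules were chosen with earlier results of these data known. All members are named, with the 2 genes of smallest p in each pathway list, any pathway list gene past the threshold with all libraries or without 1 of them, and the nearest-pattern genes of the member with the smallest p and of the widest range; other list genes named were chosen after their values were seen.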

Additional observations from a re-analysis of the deposited data

How the results depend on the processing

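No member passed the threshold of 0.05 under any of the 13 alternatives. Of 129 member values fitted under them, 110 kept their sign and 19 did not; Spry1 was filtered out when counts were divided by 4. Leaving out 1 library at a time moved the log2 fold change of Dusp1 between -0.21 and 0.40, Dusp4 between -0.14 and 0.32, Dusp5 between -1.48 and 0.018, Dusp6 between -1.12 and 0.14, Dusp16 between -0.40 and 0.43, Spry1 between -0.46 and 1.71 and Spry2 between -0.35 and 0.33, with the highest value without siNC 2 in each case. Dusp2, Dusp3 and Spred1 stayed below 0 under all alternatives run. With all 6 libraries, Dusp1 turned to 0.040 with limma-voom and 0.058 with the replicate block, and Dusp4, at 0.0011, turned to -0.0017 with DESeq2's size factors and with its test, -0.016 with library totals and -0.0037 with counts divided by 4. Deviations from the group mean had correlations of 0.03, -0.06 and -0.09 for equal replicate numbers 1, 2 and 3, and of -0.07 to 0.12 for unequal ones. As they were taken within groups of 3, and siNC 2 stood apart in its group, these values can show little of pairing. The labels do not mark the numbers as pairs, and they are not taken as such.

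The count of genes past the threshold was 1 with all libraries, 0 with library totals or with the replicate block, 88 with DESeq2, and 0 to 180 with 1 library left out, the highest without siNC 2. Leaving out 1 library moved the median log2 fold change of the early genes between -0.48 and 0.094, the inflammatory genes between -1.67 and 0.37, and the AU-rich mRNA genes between -0.90 and 0.11, each highest without siNC 2, and the Ras-ERK cascade between 0.0033 and 0.028. The cause was not tested. Depth limits Spry1, at 0 to 13 fragments per library.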

Other observations

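Some of the genes followed here were lowest in siPiezo1 2, among them family genes of low abundance and Elavl1, which is more abundant. Dusp10, a phosphatase of p38 and JNK, stood at 1.92, 0.571 and 1.67 CPM in siPiezo1 1, 2 and 3, against 1.61, 2.22 and 1.94 CPM in siNC 1, 2 and 3, and Dusp2 was likewise lowest in siPiezo1 2. Elavl1, which encodes the AU-rich mRNA-binding protein HuR, stood at 61.8, 23.3 and 65.0 CPM in siPiezo1 1, 2 and 3, against 62.7, 66.5 and 59.6 CPM in siNC 1, 2 and 3. Phlda1, an early gene downstream of ERK, stood at 4.72, 5.31 and 6.38 CPM in siPiezo1 1, 2 and 3, against 2.77, 44.1 and 2.60 CPM in siNC 1, 2 and 3, the order seen for Dusp16.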
